A study of Homo sapiens with 6 samples.

Results

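The comparison set 24 h of exposure to MPP+ against 0.5 h of exposure in SH-SY5Y cells, over all genes. Its members are 4 of the 6 libraries of the series, chosen by their labels: 2 libraries of cells given 0.1 mM MPP+ over 0.5 h and 2 libraries of cells given the same dose over 24 h. The other 2 libraries, of untreated cells, enter no fold change below. They lent to the filter on low counts, the scaling and the estimate of spread, and their mtDNA shares are given as background. SH-SY5Y is an established human neuroblastoma line, grown here in high-glucose medium with serum, and all 6 libraries come from this 1 line. Whether the 2 libraries of a group were separate cultures is not stated in the labels. Each p-value therefore measures only how far these libraries spread, and that spread may be technical.

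MPP+ is a toxin that monoamine transporters carry into neurons, where it gathers in mitochondria and blocks complex I of the respiratory chain. The assay was PRO-seq, in which polymerases already engaged on DNA are allowed to run on in isolated nuclei and the RNA they extend is sequenced, so the counts follow transcription in progress and not RNA levels. Both RNA polymerase II and RNA polymerase III are read this way, and so is the mitochondrial polymerase where mitochondria come along with the nuclei. The circular mitochondrial genome (mtDNA) is transcribed from promoters in its control region. On the heavy strand the rRNA genes MT-RNR1 and MT-RNR2 come first and MT-CYB is the last mRNA gene.

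The 0.5 h libraries held 11707612 and 8714604 counts on genes, and the 24 h libraries 8573601 and 5983066. Of 13 markers of adrenergic neuroblastoma cells, the state that SH-SY5Y is known for, 10 exceeded 1 CPM (a count scaled to the library's total) in all 4 libraries, led by GATA3. PRPH had 0 counts, INSM1 had 6 counts over the 4 libraries, and TH, the first enzyme of catecholamine synthesis, had 24. The summed level of the 13 markers was 4689 and 4006 CPM at 0.5 h and 4515 and 3700 CPM at 24 h, so the groups overlapped. Of 14 markers of fibroblasts, epithelium, leukocytes and endothelium, 8 exceeded 1 CPM in all 4 libraries, among them DCN, VWF and KRT8. Another 4 stayed under 1 CPM in all 4 libraries, among them KRT18 and LYZ. The summed level of the 14 was 233 and 202 CPM at 0.5 h and 211 and 190 CPM at 24 h, most of it EPCAM.

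No gene passed the test between the 2 exposures: edgeR's quasi-likelihood test, adjusted by Benjamini-Hochberg over 23133 genes, called 0 genes higher (0.0% of the genes tested) and 0 lower (0.0%) at 24 h. The smallest adjusted p was 0.754. At an unadjusted p under 0.05, 648 genes (2.8%) were higher and 838 (3.62%) lower, and scaling by upper-quartile factors turned that split to 916 higher and 570 lower while moving the median log2 fold change of all genes from 0.0029 to 0.037. DESeq2 also called 0 in each direction, with 181 higher and 336 lower at an unadjusted p under 0.05. Both 24 h libraries lay above both 0.5 h libraries for 4496 genes (19.4%) and below both for 4388 genes (19.0%). The calls depended on the fit. With the replicate number as a block, edgeR called 116 genes higher and 296 lower, and the labels do not say what a replicate number marks. Without the filter on low counts edgeR called 29 genes higher and 44 lower, in a fit that gave every gene the spread of the common trend, and the 2 groups overlapped for 5 of the 29 and 13 of the 44. Everything below therefore describes the 4 libraries, and no gene named is said to have risen or fallen.

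The 10 genes of smallest p among those lower at 24 h are taken first. CENPV, a centromere-associated protein (hg38 chr17:16342534-16353656), had 90.2 and 90.6 CPM at 0.5 h and 57.3 and 54.1 CPM at 24 h. The 2 groups were apart, and the difference was 1.62-fold, or -0.70 ± 0.10 on the log2 scale (SE, edgeR, unadjusted p = 4.96e-05, adjusted p = 0.754). ATXN7L2 (chr1:109483479-109492804), a relative of the SAGA subunit ataxin-7, had 62.5 and 70.1 CPM at 0.5 h and 42.3 and 36.7 CPM at 24 h, a log2 difference of -0.74 ± 0.12. KDM1A, the histone demethylase LSD1 (chr1:23019443-23083689), had 29.9 and 23 CPM at 0.5 h and 13.6 and 12 CPM at 24 h, or -1.04 ± 0.21. SATB1, a chromatin organizer (chr3:18345387-18445588), had the largest log2 difference of the 10, -1.42 ± 0.27, on low levels of 5.28 and 6.21 CPM at 0.5 h and 2.01 and 2.27 CPM at 24 h. EIF4B, a cofactor of the helicase that opens mRNA for ribosomes (chr12:53006158-53042209), had 46.9 and 43.3 CPM at 0.5 h and 29.9 and 29.4 CPM at 24 h.

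The zinc finger genes ZKSCAN2 and ZKSCAN7 were both among these 10, with log2 differences of -0.54 ± 0.10 and -0.58 ± 0.11. Each carries a SCAN domain, a module by which such proteins pair. ZKSCAN2 had 75.6 and 72.7 CPM at 0.5 h and 52.1 and 49.7 CPM at 24 h, and ZKSCAN7 had 67.6 and 66.8 CPM at 0.5 h and 48.1 and 41.4 CPM at 24 h. Of 34 tested SCAN-domain genes, 24 lay below 0, with a median log2 difference of -0.13 beside 0.0029 for all genes, and 12 (35.3%) were apart downwards and 4 (11.8%) upwards, beside 19.0% and 19.4% of all genes. SCAND1, a SCAN-domain protein without zinc fingers, stood at -0.57 ± 0.12. The list was drawn up with the ZKSCAN values known, and so it is no independent evidence. The remaining 3 genes of the 10 were the RNA-binding protein gene MEX3A (-0.51 ± 0.10) and the noncoding genes AC019077.1 (-0.62 ± 0.11) and LINC01607 (-0.63 ± 0.11).

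Among the genes that lay higher, COLQ, which anchors acetylcholinesterase (chr3:15450133-15521751), had the smallest p. It had 44.6 and 41.8 CPM at 0.5 h and 69.1 and 66.2 CPM at 24 h, 1.57-fold higher (log2 difference 0.65 ± 0.12, SE, edgeR, unadjusted p = 0.000384, adjusted p = 0.754). ANKMY2 (chr7:16599776-16645817) had 13.9 and 12.9 CPM at 0.5 h and 24.2 and 27.1 CPM at 24 h, or 0.93 ± 0.21. IFT172, of the transport machinery of cilia (chr2:27444371-27489789), stood at 0.51 ± 0.11 and FAM53C at 0.59 ± 0.14. The gene without a symbol ENSG00000288010.1 (1.11 ± 0.22), the pseudogene AL359742.1 (1.33 ± 0.29) and the noncoding gene AC009965.1 (1.34 ± 0.31) had the larger differences, on levels of at most 9.74 CPM. CFAP418-AS1, HES7 and CTC1 complete the 10. In all 20 genes of smallest p the 2 groups were apart, which ranking by p favours.

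**Figure D1:**
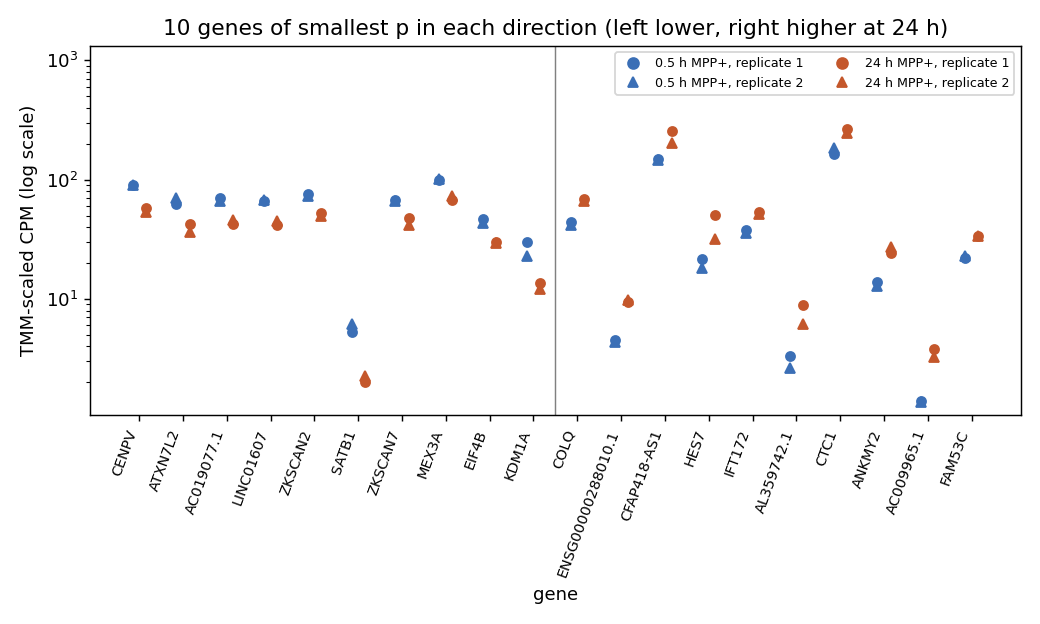
TMM-scaled CPM (log axis) in each of the 4 MPP+ libraries for the 10 genes of smallest p in each direction, colour marking the exposure and symbol the replicate. In every one of the 20 genes the 24 h points lie on one side of the 0.5 h points. CENPV, for one, stands at 57.3 and 54.1 against 90.2 and 90.6 CPM. None passed the adjusted test in the fit reported, which has no replicate block.

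Of the annotated neighbours of these 20 genes, 18 were tested, and 9 of those had overlapping groups. Of all genes, 19.4% were apart upwards and 19.0% downwards. BZW2, 0.364 kb from ANKMY2, stood at 0.053. NRBP1 and FNDC4, on either side of IFT172, stood at -0.18 and 0.045. RAB25 and LMNA, on either side of MEX3A, stood at 0.26 and 0.097, and CYB561D1, 1.29 kb from ATXN7L2, stood at -0.35, each with the groups apart. PARP1, GFRA3, KDM3B, PIGL and AQP8 lay below 0 with the groups apart, as CYB561D1 did. LINC00324, 0.778 kb from CTC1, stood at 0.33, also apart, and the nearest annotated genes on either side of HES7 were tRNA genes, TRL-TAG1-1 and TRG-GCC2-6.

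HES7, CTC1 and CFAP418-AS1 each hold at least 1 nuclear tRNA gene within their span. tRNA genes are short, are read by RNA polymerase III from promoter elements inside the gene, and are often found within or beside longer genes. The counting strand is not given in the sources used here, so reads of a tRNA gene and of the gene around it cannot be told apart. HES7, a repressor of the somite clock (chr17:8120590-8124092), holds TRR-TCT2-1 and had 21.5 and 18.2 CPM at 0.5 h and 50.3 and 31.8 CPM at 24 h, a log2 difference of 1.06 ± 0.22. CTC1, a telomere maintenance factor (chr17:8224821-8248095), holds 3 tRNA genes and had 165 and 183 CPM at 0.5 h and 264 and 244 CPM at 24 h, or 0.55 ± 0.12. CFAP418-AS1, a long noncoding gene, holds TRS-AGA2-5 and had 149 and 145 CPM at 0.5 h and 256 and 204 CPM at 24 h, or 0.65 ± 0.13. In these 3 genes both 24 h libraries were above both 0.5 h libraries.

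Of all genes tested, 69 hold 1 or more of the 443 nuclear tRNA genes of the RefSeq annotation (GRCh38), at 66 separate places. This set was drawn up after the values above were seen and is given as a description. Its median log2 difference was 0.25, beside 0.0029 for all genes, and 53 of the 69 lay above 0. The 2 groups were apart upwards for 35 and downwards for 8, where 19.4% and 19.0% of all genes were. At an unadjusted p under 0.05, 23 were higher and 2 lower. Leaving out 1 library moved the median between 0.13 and 0.29. Among the 33 protein-coding genes of the set the median was 0.13, with 13 apart upwards and 5 downwards. For 81 genes that hold no tRNA gene but have one within 5 kb, the median was 0.0058, with 16 apart upwards and 12 downwards. AL592295.4 on chromosome 1 holds 2 tRNA genes. It had 148 and 148 CPM at 0.5 h and 272 and 241 CPM at 24 h (log2 difference 0.79 ± 0.20). AL592295.3, which overlaps it on the other strand, holds 24. Its values were 730 and 548 CPM at 0.5 h and 910 and 679 CPM at 24 h (0.31 ± 0.20), with overlapping groups. LINC01962, a short noncoding gene on chromosome 5, holds TRT-TGT6-1. It had 262 and 241 CPM at 0.5 h and 379 and 354 CPM at 24 h (0.55 ± 0.14). MAP1LC3B, which holds 1 tRNA gene, was one of the 8 that lay lower.

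**Figure D2:**
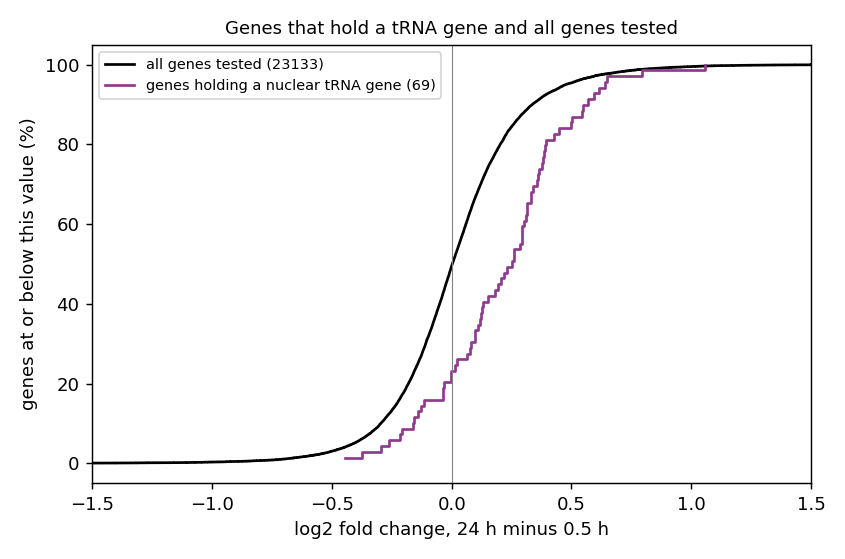
Cumulative share of genes (vertical axis, percent) at or below each log2 difference between 24 h and 0.5 h (horizontal axis), for all 23133 genes tested and for the 69 that hold a nuclear tRNA gene. The curve of the 69 genes lies to the right, with a median of 0.25 against 0.0029.

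Other tested short genes of RNA polymerase III lay above 0 too, with a wide spread between libraries. Such genes include the Y RNAs, small RNAs that bind the Ro60 protein. The transcript sequences of 2 Y RNA genes, both on chromosome 7 in hg38 (GENCODE 29), are shown because the values that follow are theirs. Capitals mark the 11 bases at the 5′ end that both share, and each ends in a run of T, the stop signal of this polymerase.
RNY1: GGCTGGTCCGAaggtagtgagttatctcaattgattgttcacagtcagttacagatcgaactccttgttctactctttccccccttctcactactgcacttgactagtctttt
RNY4: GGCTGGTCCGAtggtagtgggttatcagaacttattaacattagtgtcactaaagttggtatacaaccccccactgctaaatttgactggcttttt

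RNY4 (chr7:148963315-148963410) had 6.16 and 3.33 CPM at 0.5 h and 11.4 and 7.79 CPM at 24 h, a log2 difference of 1.0 ± 0.31 with the groups apart (edgeR, unadjusted p = 0.0103, adjusted p = 0.754). RNY1 (chr7:148987136-148987248) had 33.4 and 10.6 CPM at 0.5 h and 49.8 and 18 CPM at 24 h. Replicate 1 of each exposure was the high library for RNY1 and the groups overlapped. Its log2 difference turned from 0.62 to -0.31 without 24 h replicate 1. Of 12 tested short RNA polymerase III genes, 12 lay above 0, with a median of 0.59. The groups were apart upwards for 4 (33.3%) and downwards for 0, beside 19.4% and 19.0% of all genes. Leaving out 1 library moved the median of the 12 between -0.13 (24 h replicate 1) and 1.10 (0.5 h replicate 1). RN7SL3, a copy of the RNA of the signal recognition particle, stood at 0.64 ± 0.22 and VTRNA1-3, a vault RNA, at 0.56 ± 0.25. Near-identical copies exist for several of these genes, so reads may be split among copies.

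Genes that encode RNA polymerase III and its factors had a median near 0, at -0.017. Of 27 tested, 11 lay above 0 and 16 below. The groups were apart downwards for 12 (44.4%) and upwards for 5 (18.5%), beside 19.0% and 19.4% of all genes. POLR3D, a subunit of the polymerase, had 49.3 and 48.6 CPM at 0.5 h and 34.1 and 35.9 CPM at 24 h (log2 difference -0.49 ± 0.11). BRF2, the factor for genes with promoters upstream of the start, had 17.6 and 16.8 CPM at 0.5 h and 24.3 and 22.4 CPM at 24 h (0.44 ± 0.16). Of the spliceosomal snRNA and U3 genes read by RNA polymerase II, 9 of 9 tested lay below 0, with a median of -0.22. The short RNA polymerase III genes lay the other way with all libraries in, but not without 24 h replicate 1 (median -0.13). Leaving out 1 library moved the median of the 9 between -0.50 and -0.11. Of the 9, 4 (44.4%) were apart downwards and 0 upwards, beside 19.0% and 19.4% of all genes. Among the 9, RNU4-2, a U4 snRNA, had 84.5 and 75.4 CPM at 0.5 h and 63.8 and 60.4 CPM at 24 h (-0.36 ± 0.10). SNORD3A, the U3 RNA of rRNA processing, stood at -0.41 ± 0.14.

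Transcription of mtDNA is the subject of the series, and the share of counts on mtDNA genes overlapped between the 2 exposures. It was 0.0275% (95% Clopper-Pearson interval 0.0266% to 0.0285%) and 0.0372% (0.0359% to 0.0385%) at 0.5 h, and 0.0334% (0.0322% to 0.0347%) and 0.029% (0.0277% to 0.0304%) at 24 h. The intervals cover counting error only. The mean at 24 h was 0.965 times the mean at 0.5 h (0.0312% ± 0.00313 against 0.0324% ± 0.00683, SD, n = 2 each, exact permutation p = 1, two-sided, where 6 splits allow no p under 0.333). Both lay under the untreated libraries, at 0.144% and 0.149%.

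Within mtDNA the rRNA genes held a lower share of the counts in both 24 h libraries. Of mtDNA counts, the 2 rRNA genes held 25.1% (95% Clopper-Pearson interval 23.6% to 26.7%) and 24.3% (22.8% to 25.8%) at 0.5 h, and 18.2% (16.8% to 19.7%) and 19.2% (17.4% to 21.1%) at 24 h. The groups were apart. By the exact permutation test this difference had a two-sided p of 0.333 (n = 2 each), the smallest it can give. In the untreated libraries the rRNA share was 25.8% and 21%, a wider spread than within either exposure. MT-RNR1 alone, the 12S rRNA, held 5.86% and 5.86% at 0.5 h and 3.14% and 3.74% at 24 h, on 189 and 190 counts at 0.5 h and 90 and 65 counts at 24 h.

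MT-RNR1 (mtDNA, 648 to 1601) had 16.6 and 21.8 CPM at 0.5 h and 10.7 and 10.6 CPM at 24 h, a log2 difference of -0.85 ± 0.19 (SE, edgeR, unadjusted p = 0.00137, adjusted p = 0.754). MT-RNR2 (1671 to 3229), the 16S rRNA, had 54.7 and 68.5 CPM at 0.5 h and 51.3 and 43.5 CPM at 24 h, or -0.37 ± 0.16. MT-CYB (14747 to 15887), of complex III, had 20.3 and 27 CPM at 0.5 h and 17.6 and 14.1 CPM at 24 h, or -0.55 ± 0.17. In these 3 genes both 24 h libraries lay below both 0.5 h libraries. For MT-RNR2 and MT-CYB the gap between the groups was smaller than the spread within a group.

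Of the 12 heavy-strand mRNA genes, MT-CYB included, 9 lay above 0 (median 0.064). In each direction 1 (8.33%) was apart, beside 19.4% of all genes upwards and 19.0% downwards. The median ran from -0.13 to 0.29 when 1 library was left out. MT-CO1, of cytochrome c oxidase, had 30.5 and 34.8 CPM at 0.5 h and 50.8 and 31.7 CPM at 24 h, and its log2 difference of 0.35 turned to -0.042 without 24 h replicate 1. MT-CO2 and MT-CO3 stood at -0.017 and 0.043, and the complex I genes MT-ND1, MT-ND2, MT-ND3, MT-ND4, MT-ND4L and MT-ND5 lay between -0.18 and 0.23, all with overlapping groups. MT-ND6, the mRNA gene of the light strand, had 4.4 and 4.14 CPM at 0.5 h and 6.4 and 4.55 CPM at 24 h (0.37 ± 0.25). MT-ATP8, of ATP synthase, was low throughout, with 1.06 and 1.15 CPM at 0.5 h and 2.01 and 1.95 CPM at 24 h (0.85 ± 0.35), and it overlaps MT-ATP6 (0.31 ± 0.27). Over all 33 tested mtDNA genes the median was 0.15, with 22 above 0, and it moved between -0.19 and 0.37 when 1 library was left out.

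**Figure D3:**
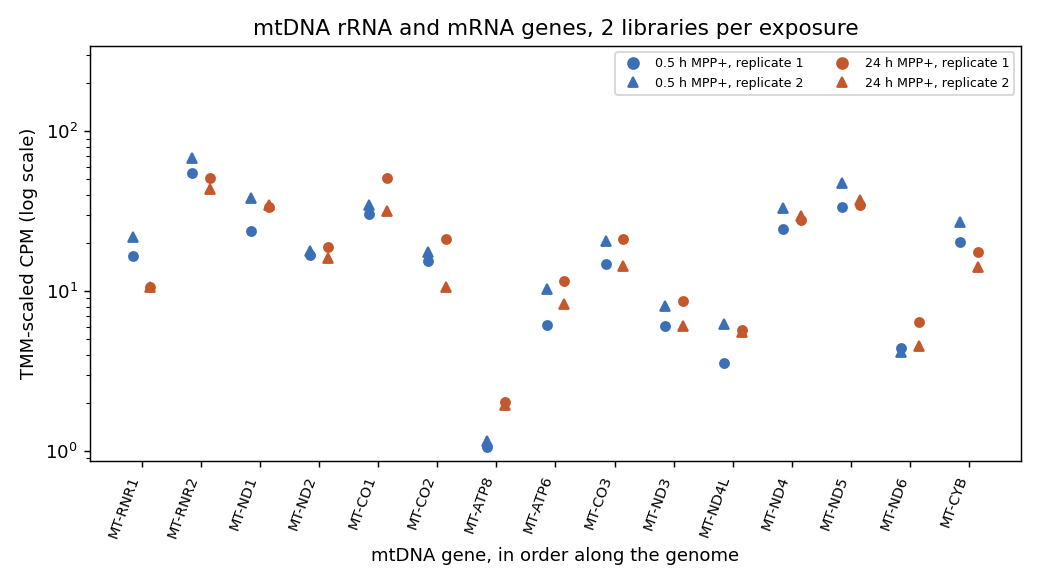
TMM-scaled CPM (log axis) of the mtDNA rRNA and mRNA genes in the order of their positions, in each of the 4 MPP+ libraries. MT-RNR1 at the left stands lower at 24 h (10.7 and 10.6 CPM) than at 0.5 h (16.6 and 21.8 CPM), whereas the points of genes such as MT-ND4 are interleaved.

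Lists of nuclear genes differed by small amounts. In DESeq2 and in the edgeR fit reported, which has no replicate block, 0 members of any list passed the adjusted test. With the block, edgeR called 8 of 45 S phase genes and 9 of 71 cytosolic ribosomal protein genes lower. It called 3 of 25 p53 targets higher, and 0 members of these lists the other way. Of all 23133 genes the block fit called 116 higher and 296 lower. The medians of the lists are read beside 0.0029 for all genes, of which 11688 of 23133 lay above 0. Of all genes 19.4% were apart upwards and 19.0% downwards, and 2.8% were higher and 3.62% lower at an unadjusted p under 0.05. Genes of S phase and DNA replication lay lower at 24 h: 42 of 45 tested were below 0, with a median of -0.21, 27 (60.0%) apart downwards and 0 upwards, and 11 lower at an unadjusted p under 0.05. MCM5 and MCM6, of the replicative helicase, had 92.4 and 82 CPM and 83.6 and 79.3 CPM at 0.5 h, against 60.3 and 59.7 CPM and 60.1 and 62.8 CPM at 24 h. Their log2 differences were -0.54 ± 0.15 and -0.41 ± 0.12. UNG, which removes uracil from DNA, stood at -0.52 ± 0.14, and UHRF1, which guides maintenance methylation of DNA, at -0.40 ± 0.13. Genes of G2 and M phase had a median of -0.038, with 22 of 32 below 0.

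Replication-dependent histone genes, which are transcribed in S phase, had a median of the other sign. Of 53 tested, 39 lay above 0, with a median of 0.17. Only 1 (1.89%) was apart upwards and 1 (1.89%) downwards, beside 19.4% and 19.0% of all genes. H2BC4 had 184 and 143 CPM at 0.5 h and 289 and 175 CPM at 24 h, and H4C8 had 142 and 104 CPM at 0.5 h and 182 and 135 CPM at 24 h. In both genes replicate 1 was the higher library of each exposure. Leaving out 24 h replicate 1 turned the list's median to -0.15 and leaving out 0.5 h replicate 2 to -0.10, while it was 0.46 once 0.5 h replicate 1 was left out.

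Most genes of protein synthesis had lower values at 24 h. Of 71 cytosolic ribosomal protein genes, 63 lay below 0 (median -0.18), with 31 (43.7%) apart downwards and 2 (2.82%) upwards, beside 19.0% and 19.4% of all genes. RPLP1, of the ribosomal stalk, had 204 and 135 CPM at 0.5 h and 112 and 107 CPM at 24 h (log2 difference -0.63 ± 0.18). RPL19 stood at -0.44 ± 0.12 and RPL4 at -0.30 ± 0.10, and RPS28 lay the other way, with 25.5 and 24.5 CPM at 0.5 h and 34.8 and 32.8 CPM at 24 h (0.44 ± 0.14). Of 58 genes of the mitochondrial ribosome, 48 lay below 0 (median -0.18), with 28 (48.3%) apart downwards, among them MRPS21 (-0.40 ± 0.11) and MRPL13 (-0.41 ± 0.13). Ribosome biogenesis and MYC target genes had 29 of 32 below 0 and a median of -0.19. MYBBP1A, of the nucleolus, had 65.3 and 66.9 CPM at 0.5 h and 50.3 and 51 CPM at 24 h, and UBTF, which opens rRNA genes for RNA polymerase I, stood at -0.47 ± 0.14. Of 20 aminoacyl-tRNA synthetase genes 18 lay below 0 (median -0.16), with WARS1 at -0.48 ± 0.12 and AARS1 at -0.26 ± 0.11.

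Nuclear genes that serve mitochondria lay lower by similar amounts. Of 33 genes of mitochondrial transcription and mtDNA maintenance, 27 lay below 0 (median -0.15). TBRG4, which acts on mitochondrial RNA, had 127 and 119 CPM at 0.5 h and 96.1 and 90.3 CPM at 24 h (-0.40 ± 0.10), and PPRC1, a coactivator of mitochondrial biogenesis, stood at -0.46 ± 0.15, whereas POLG2, the accessory subunit of the mtDNA polymerase, stood at 0.20 ± 0.10. Of 32 nuclear genes of complex I, the target of MPP+, 27 lay below 0 (median -0.15), with NDUFS5 at -0.36 ± 0.16. Of 29 nuclear genes of the other complexes 22 lay below 0 (median -0.11). COX7C, of cytochrome c oxidase, had 27.6 and 24.6 CPM at 0.5 h and 17.2 and 16.4 CPM at 24 h (-0.64 ± 0.16), and ATP5MC2, of the ring of ATP synthase, stood at -0.35 ± 0.11.

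**Figure D4:**
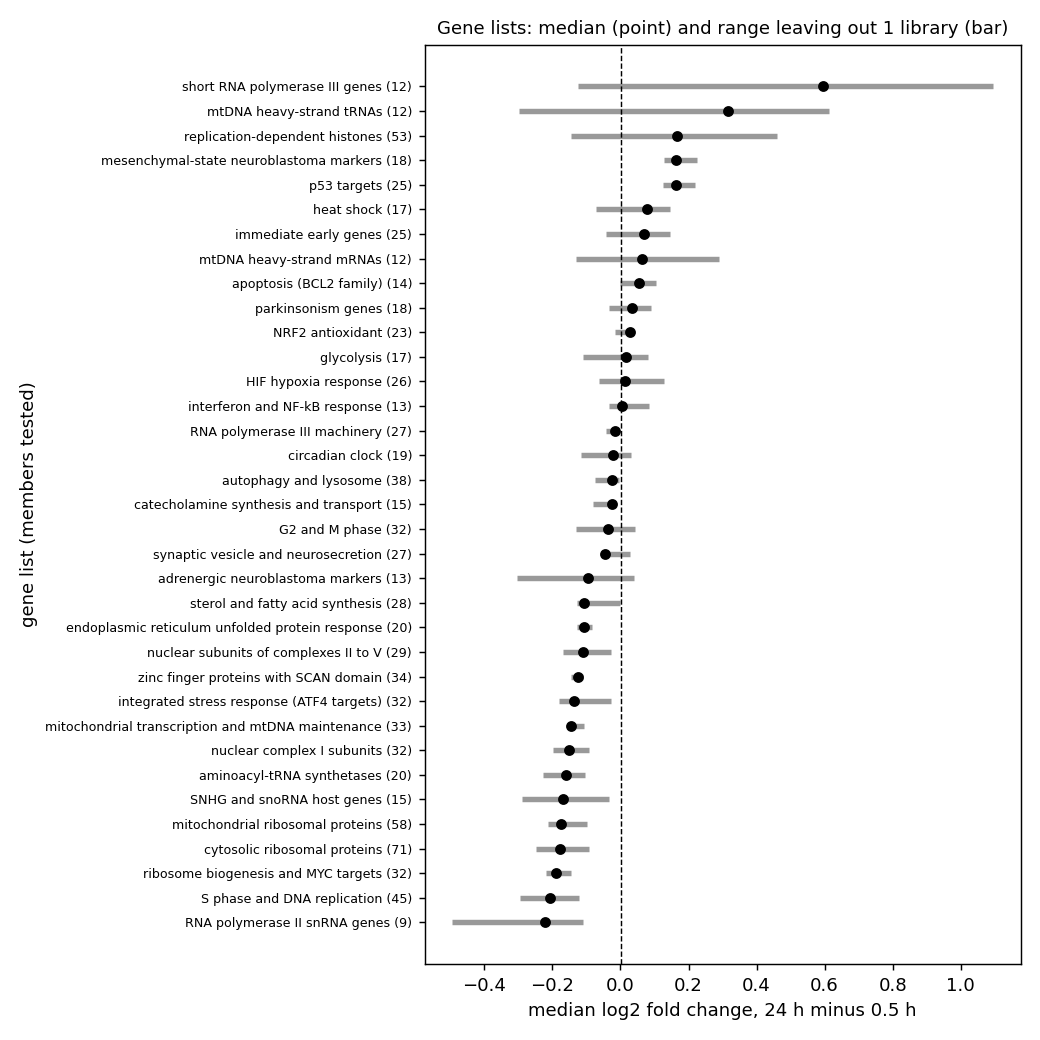
Median log2 difference between 24 h and 0.5 h for each gene list (point; members tested in brackets), with the range of that median when each of the 6 libraries is left out in turn (bar) and the median of all genes (dashed line). Replication and ribosome lists lie left of the line over the whole bar, as S phase at -0.21 does, whereas the bars of short RNA polymerase III genes and histones cross it.

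Lists of stress pathways had medians between -0.14 and 0.079. For targets of ATF4, which drives the integrated stress response, the median was -0.14, with 11 above 0 and 21 below. Within the list CTH, of cysteine synthesis, had 29.6 and 25.4 CPM at 0.5 h and 38.5 and 38 CPM at 24 h (0.47 ± 0.14) and STC2 stood at 0.40 ± 0.15, whereas SLC3A2, of an amino acid transporter, stood at -0.32 ± 0.11 and VLDLR at -0.40 ± 0.16. Unfolded protein response genes had a median of -0.11 (14 of 20 below 0), heat shock genes 0.079 (9 of 17 above 0), NRF2 antioxidant genes 0.027 (12 of 23 above 0), HIF targets 0.012 (14 of 26 above 0) and glycolysis genes 0.016 (10 of 17 above 0). The HIF target P4HA1, a collagen prolyl hydroxylase, had 103 and 100 CPM at 0.5 h and 149 and 124 CPM at 24 h (0.43 ± 0.11). BAG3, a partner of heat shock protein 70, had 9.42 and 10.9 CPM at 0.5 h and 14.8 and 15.9 CPM at 24 h (0.60 ± 0.18), and HSPB1 stood at 0.29 ± 0.13. In the antioxidant list PGD, of the pentose phosphate pathway, stood at -0.32 ± 0.10 and OSGIN1 at 0.56 ± 0.21.

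Targets of p53 lay higher at 24 h. Of 25 tested 17 were above 0, with a median of 0.16, 11 (44.0%) apart upwards and 4 (16%) downwards, beside 19.4% and 19.0% of all genes, and leaving out 1 library moved the median between 0.12 and 0.22. BTG2, which slows proliferation, had 95.1 and 82.8 CPM at 0.5 h and 151 and 107 CPM at 24 h (log2 difference 0.54 ± 0.17). CDKN1A, the cell cycle inhibitor p21, had 48.2 and 45 CPM at 0.5 h and 57.1 and 66.2 CPM at 24 h (0.40 ± 0.14). ZMAT3 stood at 0.30 ± 0.10 and the death receptor gene TNFRSF10B at 0.34 ± 0.13. Of 25 immediate early genes, which answer stimuli within minutes, 14 lay above 0 (median 0.068), with NR4A1 at 0.31 ± 0.10 and DUSP6, a phosphatase that limits ERK, at -0.37 ± 0.11. BCL2 family genes had a median of 0.055, with 3 of 14 (21.4%) apart in each direction, near the 19.4% and 19.0% of all genes.

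Genes tied to dopamine neurons and parkinsonism had medians near 0. Of 18 parkinsonism genes 9 lay above 0 and 9 below (median 0.034). The groups were apart upwards for 7 (38.9%) and downwards for 3 (16.7%), beside 19.4% and 19.0% of all genes. CHCHD2, a mitochondrial protein gene, had 30.9 and 35.5 CPM at 0.5 h and 22.7 and 25.3 CPM at 24 h (-0.47 ± 0.16), and VPS13C stood at 0.20 ± 0.10. Catecholamine genes had a median of -0.026, with QDPR, which recycles the cofactor of tyrosine hydroxylase, at -0.30 ± 0.10. Synaptic vesicle and neurosecretory genes had a median of -0.045, with SYT11 at -0.38 ± 0.10 and SCG2, secretogranin II, at -0.58 ± 0.22, and with RAB3C at 0.24 ± 0.10 and SYP, synaptophysin, at 0.36 ± 0.15. Autophagy and lysosome genes had a median of -0.025. BECN1 stood at -0.39 ± 0.12 and MAP1LC3B at -0.37 ± 0.11. Clock genes had a median of -0.023, with 5 of 19 (26.3%) apart upwards and 4 (21.1%) downwards, near the 19.4% and 19.0% of all genes. PER2 at -0.55 ± 0.20 and TEF at -0.53 ± 0.16 were among those apart downwards.

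Markers of cell state are given beside these lists. A longer adrenergic list held 17 genes, of which 13 were tested, not the same 13 as the markers given first. Of these tested genes 10 lay below 0 (median -0.096). Leaving out 1 library moved that median between -0.30 (24 h replicate 1) and 0.039 (24 h replicate 2). Of 18 mesenchymal-state markers 14 lay above 0 (median 0.16), with 7 (38.9%) apart upwards, beside 19.4% of all genes, and 0 downwards. Their summed level was 2042 and 1556 CPM at 0.5 h and 1804 and 1464 CPM at 24 h, so the groups overlapped and the sum did not follow the median. The mesenchymal marker TWIST1 alone had 1645 and 1283 CPM at 0.5 h and 1442 and 1184 CPM at 24 h, scaled to library totals. The part of cell state markers in the list differences was not tested. Fewer cells of one kind and less transcription per cell cannot be told apart in such pooled cells.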

How the data were processed

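PRO-seq gene counts of 6 libraries were used, 2 per group. The tools named in the submitters' processing notes include Bowtie2 2.4.2, cutadapt 1.16.5 and featureCounts 2.0.1, with the build hg38. The authors deposited raw counts of reads per gene. Settings for strand, feature type and multimapping are not given in the sources. Of 67051 gene IDs, a gene table named 42023 and GENCODE 29 a further 16527. The 8501 others held 0.872% to 1.00% of a library.

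Genes were filtered with filterByExpr, scaled by TMM and fitted with edgeR 4.0.16 (R 4.3.3) on 6 libraries in 3 groups, leaving 3 residual degrees of freedom. The threshold was an adjusted p of 0.05. CPM are TMM-scaled, except for cell markers and shares. The step was tested on simulated data. Libraries of a group differed by 4.01 to 8.93 times counting error (chi-square per degree of freedom), so none was a copy. Members, lists and tests were chosen with earlier results of these data known. The genes named were the 10 of smallest p in each direction, mtDNA rRNA and mRNA genes, and up to 4 members of smallest p per list. AL592295.4, AL592295.3, LINC01962 and RNY1 were chosen after their values were seen. Alternatives were DESeq2 1.42.0, other scalings and filters, the 4 MPP+ libraries alone, a replicate block and leaving out each library. A few members that the rule names are not reported here. The authors' tables of differential genes were not used.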

Additional observations from a re-analysis of the deposited data

How the results depend on the processing

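The 0 calls in each direction held under DESeq2, RLE, upper-quartile or no scaling factors, a mean of at least 50 counts, the 4 MPP+ libraries alone and leaving out each of the 6 libraries. Without a filter on low counts edgeR called 29 higher and 44 lower, and 25 of the 98 genes tried under each alternative passed there. The fit with a replicate block gave 116 higher and 296 lower with all 6 libraries, and 580 and 1057 with the 4 MPP+ libraries. The groups compared share 2 replicate numbers, and the labels do not say what a number marks, so the numbers are not taken to pair the libraries and the fit without the block is the one reported. Deviations of same-numbered libraries from their group means correlated across genes at 0.328 (untreated, 0.5 h), 0.293 (untreated, 24 h) and 0.312 (0.5 h, 24 h). These correlations were read after the block's calls were seen. In combinations added after seeing the data, the block gave 163 higher and 163 lower with upper-quartile factors, 141 and 148 with library totals only, 126 and 323 with RLE factors and 119 and 255 with a mean of at least 50 counts. With the block and 1 library left out, the counts ran from 18 higher and 49 lower (without 24 h replicate 1) to 557 and 1047 (without untreated replicate 1), with 531 and 1007 without untreated replicate 2, 170 and 205 without 0.5 h replicate 1, 80 and 193 without 0.5 h replicate 2 and 148 and 179 without 24 h replicate 2. The cause was not tested.

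The ratio of mtDNA shares ran from 0.84 to 1.13 when 1 of the 4 MPP+ libraries was left out, so it lay on either side of 1. Among the genes named, the log2 difference of MT-CO2 turned to 0.016 with upper-quartile factors and 0.0058 with library totals, and the log2 fold change of MT-ND4 to -0.0036 without a filter and -0.0015 with DESeq2, all near 0. Leaving out 1 library gave ranges that crossed 0 for MT-CO1 (-0.042 to 0.64), MT-CO2 (-0.64 to 0.37), MT-CO3 (-0.27 to 0.29), MT-ND1 (-0.16 to 0.51), MT-ND2 (-0.10 to 0.14), MT-ND3 (-0.22 to 0.30), MT-ND4 (-0.21 to 0.23), MT-ND4L (-0.15 to 0.67), MT-ND5 (-0.41 to 0.080), MT-ATP6 (-0.033 to 0.70) and RNY1 (-0.31 to 1.70).

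With 2 libraries a group, the exact tests could not pass the threshold. Low counts limit mtDNA genes such as MT-ATP8 and the short RNA polymerase III genes.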

Other observations

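Long genes and long intergenic noncoding genes had medians above that of all genes. Of all genes, 19.4% were apart upwards and 19.0% downwards. Of 4378 genes of at least 100 kb, 62.2% were above 0 (median log2 difference 0.045), with 1116 (25.5%) apart upwards and 472 (10.8%) downwards. Leaving out 1 library moved that median between 0.0042 and 0.084. Of 5453 genes of 5 to 20 kb, 46.2% were above 0 (median -0.022), with 923 (16.9%) apart upwards and 1180 (21.6%) downwards, near the shares of all genes. Of 3102 long intergenic noncoding genes, 60.3% were above 0 (median 0.070), with 679 (21.9%) apart upwards and 386 (12.4%) downwards, whereas 15172 protein-coding genes had a median of -0.0089. These medians move with the scaling, to 0.079, 0.011, 0.10 and 0.025 with upper-quartile factors. Length classes and gene types were chosen after the values were seen and got no test.

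SNHG and other snoRNA host genes had 12 of 15 below 0 (median -0.17), and sterol and fatty acid synthesis genes 20 of 28 (median -0.11). The sequence GGTTCGA, the core of the B box of tRNA genes, was searched on both strands from 250 bases before to 50 after the start of genes (RefSeq). It was in 1.19% of 13825 promoters of tested genes and in 3 of 40 promoters of genes that hold a tRNA gene. A tRNA gene lying in that window can itself supply the B box, so no conclusion is drawn. Other motifs were searched the same way. The NRF1 core GCATGC was in 8.37% of the 13825 and in 6 of the 40. The E box CACGTG was in 9.10% and in 2 of the 40, and the TATA box TATAAA in 7.36% and in 0 of the 40.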
